A study of Mus musculus with 6 samples.

Results

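The 10 genes described here code for the 5 subunits of the transcription factor NF-kB (Nfkb1, Nfkb2, Rel, Rela and Relb), for 3 inhibitors that hold NF-kB in the cytoplasm (Nfkbia, Nfkbib and Nfkbie), for the nuclear inhibitor-like protein Bcl3 and for the ubiquitin-editing brake Tnfaip3. They were chosen by name, with earlier results of these data known, as 10 of 21139 genes in the deposited table. All 10 passed the filter on low counts that left 13507 genes to test. RNA came from CD4+ T cells of the spleen of C57BL/6J mice, stimulated with antibodies to CD3 and to CD28 for 2 days in culture medium with serum. The medium group (3 libraries) had no added compound, and the CpdA group (3 libraries) had CpdA, an agonist of the fatty acid receptor Gpr120, at a labelled dose of 20 with the unit given once as "µm" and once as "microm". All cells in both groups were activated, and no resting cells are compared here. The labels name no vehicle, age or sex, and do not say whether libraries of a group came from separate mice or cultures, and the p-values therefore describe the spread between these libraries, part or all of which may be technical. The question stated for the series is what the agonist does to the gene profile of these cells.

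NF-kB proteins work as pairs of subunits. In the classical branch, signals from the T cell receptor and CD28 pass through a complex of BCL10 and MALT1 to the IKK kinases, which mark the inhibitors IkBα (Nfkbia), IkBβ (Nfkbib) and IkBε (Nfkbie) for destruction and so free pairs that contain RelA or c-Rel. In the alternative branch, receptors of the TNF receptor family act through the kinase NIK (Map3k14), and the precursor p100 made from Nfkb2 is cut to p52, which pairs with RelB. Nfkbia, Tnfaip3, Nfkb2, Relb and Bcl3 are textbook targets of NF-kB itself, so the pathway contains its own feedback.

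With CpdA, the subunit genes of the alternative branch, Nfkb2 and Relb, rose by 0.13 and 0.18 on the log2 scale. The classical subunit genes Rel and Rela fell by 0.22 and 0.11, and Bcl3 fell by 0.20. Nfkb1, by level the leading member, was not past the threshold, nor were the inhibitor genes Nfkbia, Nfkbib and Nfkbie or the brake Tnfaip3. Thus 2 of 10 members rose, 3 fell and 5 were not called (edgeR quasi-likelihood test, adjusted p under 0.05). Of all genes tested, 33.2% were called, 16.5% higher and 16.7% lower, which is the background for the 5 of 10 members called. In 6 of 10 members the 2 groups of libraries had no overlap, against 43.9% of all genes tested. The median absolute log2 fold change was 0.09 over the members and 0.14 over all genes tested, weakly expressed ones included.

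Library totals ran from 20247761 to 25952169 counts, and members were covered by 561 counts (Nfkbie, the lowest library) to 17820 counts (Nfkb1, the highest). No pair of libraries agreed within sampling noise: the chi-square divided by its degrees of freedom was 2.17 to 4.17 inside groups and 10.8 to 18.4 across them. The CD4 T cell label was matched by level, with Cd4 at 380.2 CPM (each count scaled to its library's total) in medium and 334 with CpdA. The CD4 T cell markers also differed between groups, in mixed directions. Cd4 fell by 0.20 on the log2 scale (edgeR adjusted p = 4.96e-07), Cd3d by 0.12 (0.00303) and Cd3e by 0.27 (7.6e-09). Cd3g fell by 0.21 (5.29e-06) and Trac by 0.20 (1.49e-05), whereas Cd5 rose by 0.14 (0.0001). The CD8 markers Cd8a and Cd8b1 summed to 7.33 to 9.40 CPM over the 6 libraries, most of it Cd8b1. The defining macrophage markers Adgre1, Csf1r and Lyz2 and the NK cell markers Ncr1 and Klrb1c stayed at or below 0.20 CPM in every library. The other marker of each list was higher: Cd68 fell from 5.05 to 3.92 CPM (adjusted p = 0.0385), and Gzma, which T cells also express, stood at 51.9 and 49.1 CPM (adjusted p = 0.163).

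Per length of transcript, the members spanned a 15.3-fold range of mean level. The deposited FPKM (counts scaled to gene length and library total) of Nfkb1, whose product p105 is the precursor of p50, was 169 ± 3 in medium (SD, n = 3) and 169 ± 4 with CpdA, higher than 97.5% of the genes tested. In medium, Nfkbia followed at 95.8 ± 2.6 FPKM, then Bcl3 at 85.0 ± 1.0 and Nfkb2 at 84.2 ± 3.6, whose ranges overlapped. Tnfaip3 (42.1 ± 0.1 FPKM) and Rela (40.3 ± 1.6) also overlapped, Nfkbib stood at 31.6 ± 1.7, and Rel (14.6 ± 0.3) and Relb (14.4 ± 1.0) could not be ranked against each other. Nfkbie was the lowest, at 11.2 ± 0.9 FPKM. With CpdA these 3 overlapping pairs were apart. Tnfaip3 (41.4 ± 0.3 FPKM) stayed above Rela (37.7 ± 1.0). Nfkb2 (92.5 ± 2.3 FPKM) lay above Bcl3 (74.3 ± 2.3) and Relb (16.5 ± 0.6) above Rel (12.6 ± 0.7), in each pair without overlap. The CpdA ranges of Nfkbia and Nfkb2 overlapped, as did those of Rel and Nfkbie.

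**Figure D1:**
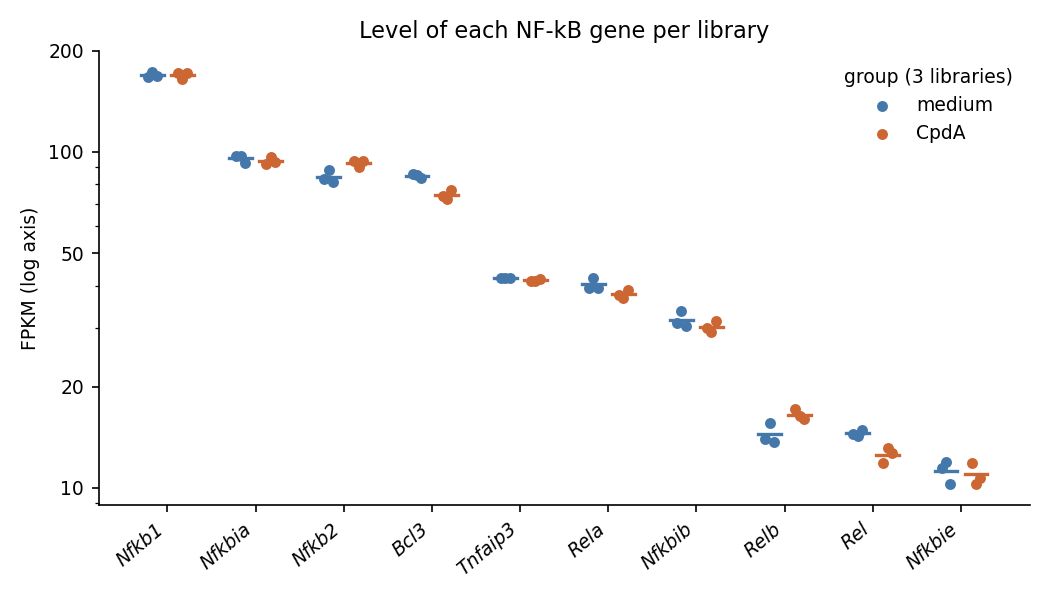
FPKM of the 10 members on a log axis, ordered by mean level. Each point is 1 of 3 medium or 3 CpdA libraries and each bar is a group mean. Nfkb1 lies near 169 FPKM in both groups, and Relb and Rel are level in medium but apart with CpdA.

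The promoters of these genes are shown because NF-kB is known to act on several of them. RefSeq promoter windows of the same build (GRCm38.p6, from 250 bases before to 50 after the annotated start) were found for 8 of 10 members, all but Nfkb1 and Relb. Both strands were searched for the kB consensus motif, which is 10 bases long; it is nearly symmetric, so matches on opposite strands or shifted by a base can overlap. It was present in 6 of 8 members with a window (75.0%), against 1388 of 27025 genes in the table (5.14%) and 6.33% of the genes tested here that have a window. Nfkbia, Tnfaip3, Nfkb2 and Bcl3 are textbook targets of NF-kB. A high share among the members was therefore likely beforehand and is no finding from these libraries. Rela and Nfkbib held no match. Where a gene had several windows, a match in any of them was counted, and the window nearest the deposited start of the gene is shown. Counted from the annotated start, the first matching base lay at -39 in Nfkb2 (with a further site at -11), -92 in Rel, -29 in Nfkbia, -106 in Nfkbie, and -125 and -12 in Tnfaip3. In Bcl3 it lay at position 3 of the transcribed part. The stretches below run 5′ to 3′ on the strand of the gene, with the bases matched on either strand in capitals. They cover chr19:46304683-46304736 (Nfkb2, plus strand), chr11:23771036-23771076 (Rel, minus strand), chr12:55492652-55492691 (Nfkbia, minus strand), chr17:45555579-45555618 (Nfkbie, plus strand), chr10:19015411-19015550 (Tnfaip3, minus strand) and chr7:19822734-19822763 (Bcl3, minus strand).
Nfkb2: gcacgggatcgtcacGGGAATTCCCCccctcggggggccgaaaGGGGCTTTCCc
Rel: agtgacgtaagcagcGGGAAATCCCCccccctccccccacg
Nfkbia: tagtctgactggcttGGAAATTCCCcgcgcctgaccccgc
Nfkbie: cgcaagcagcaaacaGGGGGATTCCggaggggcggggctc
Tnfaip3: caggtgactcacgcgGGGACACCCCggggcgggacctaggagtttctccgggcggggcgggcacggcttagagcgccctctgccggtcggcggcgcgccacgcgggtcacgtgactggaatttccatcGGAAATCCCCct
Bcl3: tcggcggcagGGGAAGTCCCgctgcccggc
A match describes letters only. The 6 genes with a match included 1 that rose with CpdA (Nfkb2), 2 that fell (Rel and Bcl3) and 3 that were not called (Nfkbia, Nfkbie and Tnfaip3).

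Nfkb2 (ENSMUSG00000025225, chromosome 19, 46304737 to 46312090), which codes for p100 and p52, had 266, 283 and 261 CPM in medium replicates 1 to 3 and 301, 288 and 301 CPM with CpdA. Every CpdA library lay above every medium library, with the nearest values at 283 and 288 CPM. The log2 fold change was 0.13 ± 0.03 (SE, adjusted p = 0.00163), or 1.09-fold with a 95% interval of 1.04 to 1.14. Psd overlaps Nfkb2 on the opposite strand, and whether the counting used strand is not known here. Psd held 6.90% as many counts as Nfkb2 and also rose, by 0.24 (adjusted p = 0.0215).

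Relb (ENSMUSG00000002983, chromosome 7, 19606217 to 19629438), the partner of p52, had 45.8, 50.9 and 44.9 CPM in medium and 56.2, 53.5 and 52.3 CPM with CpdA. Its groups did not overlap either, although medium replicate 2 came close to the CpdA libraries. The log2 fold change was 0.18 ± 0.05 (SE, adjusted p = 0.00532), a 1.13-fold rise with an interval of 1.06 to 1.22. Without medium replicate 3 it was 0.15 and missed the threshold (adjusted p = 0.0579; 0.000665 to 0.0579 over 13 alternatives), which leaves 1 member higher. The B cell markers Ms4a1, Cd79a and Cd79b together made 13.8 to 17.04 CPM in medium and 14.4 to 16.1 CPM with CpdA (exact permutation p = 0.7, two-sided). The smallest p this design allows is 0.1. Of these 3 markers, Ms4a1 rose from 2.16 to 3.16 CPM (edgeR adjusted p = 0.0349). Cd79a stood at 6.15 and 5.42 CPM (adjusted p = 0.388). Cd79b stood at 6.91 to 7.49 CPM in medium and 6.35 to 6.70 CPM with CpdA (adjusted p = 0.326). Such sums give no share of cells, and a part of B cells in the Relb change was not tested. The dendritic cell list summed to 143 to 148 CPM in medium and 111 to 118 CPM with CpdA (exact permutation p = 0.1, two-sided). Nearly all of it was H2-Ab1, which B cells also express and which fell from 142 to 110 CPM (log2 fold change -0.37, edgeR adjusted p = 6.05e-11). Itgax, Flt3, Xcr1 and Siglech had group means of 2.60 CPM or less. Of these, Itgax stood at 0.69 CPM in medium and 0.82 with CpdA (adjusted p = 0.638). Flt3 stood at 2.22 and 2.60 CPM (adjusted p = 0.478), so the fall of the sum was that of H2-Ab1. In these bulk libraries, fewer cells of a type and less RNA per cell cannot be told apart.

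Rel (ENSMUSG00000020275, chromosome 11, 23741514 to 23770970) codes for c-Rel, the subunit known for its part in T cell activation and Il2 expression. It had 40.5, 40.02 and 41.7 CPM in medium and 33.2, 36.8 and 35.5 CPM with CpdA, so the lowest medium library stood clear of the highest CpdA library. Its log2 fold change was -0.22 ± 0.06 (SE, adjusted p = 0.0017), a level 0.859 times that in medium (interval 0.795 to 0.928). The call held in all 13 alternatives.

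Rela (ENSMUSG00000024927, chromosome 19, 5637483 to 5648130), the gene of p65, had 107, 115 and 107 CPM in medium and 102, 99.8 and 105 CPM with CpdA. The groups were adjacent, with the lowest medium and highest CpdA values at 107 and 105 CPM. The log2 fold change was -0.11 ± 0.04 (SE, adjusted p = 0.0267), and this was the least secure of the 5 calls. The call was lost with DESeq2 (log2 fold change -0.11 and adjusted p 0.0618), without medium replicate 2 (-0.07 and 0.184), without CpdA replicate 1 (-0.10 and 0.0628) and without CpdA replicate 2 (-0.09 and 0.109). The adjusted p had a range of 0.0139 to 0.184 over 13 alternatives.

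Nfkb1 (ENSMUSG00000028163, chromosome 3, 135584655 to 135691547) had 688, 711 and 690.3 CPM in medium and 706, 678 and 707 CPM with CpdA, which overlap fully. The log2 fold change of -0.01 ± 0.03 (SE, adjusted p = 0.858) had a 95% interval of -0.06 to 0.05, which corresponds to 0.957-fold to 1.03-fold.

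**Figure D2:**
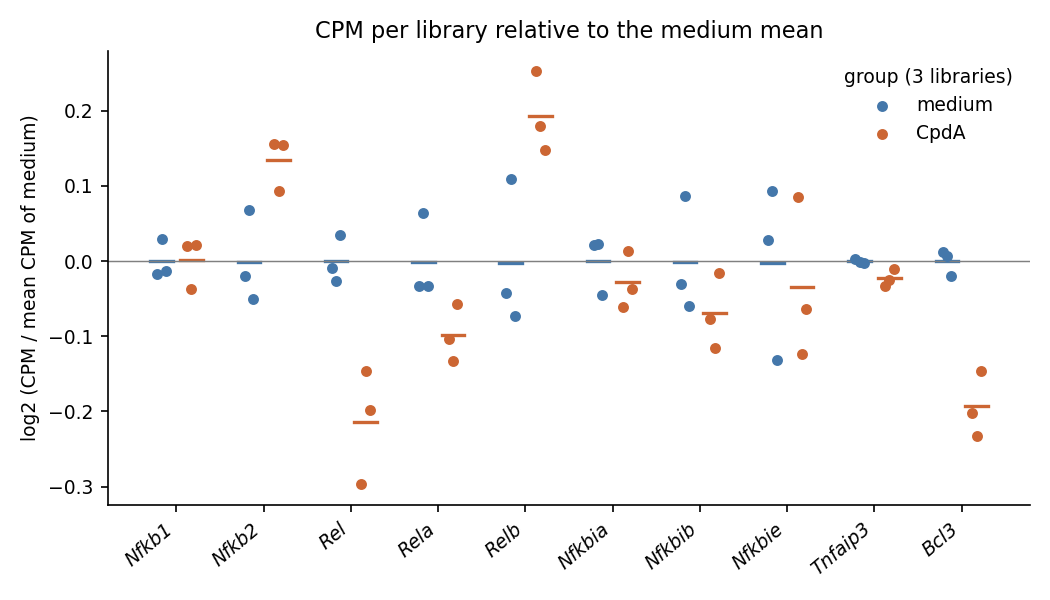
CPM of each member in each library as log2 of its ratio to the mean of the 3 medium libraries; points are libraries and bars are means of the log2 values. Nfkb2 and Relb lie above medium in all 3 CpdA libraries and Rel, Rela and Bcl3 below, with no overlap.

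Set against each other, the subunit genes shifted in makeup. Nfkb1 made 52.4% ± 0.5 of the summed FPKM of the 5 subunits in medium (SD, n = 3) and 51.5% ± 0.2 with CpdA. Nfkb2 went from 26.1% ± 0.4 to 28.2% ± 0.1 and Relb from 4.47% ± 0.18 to 5.02% ± 0.20. Rela went from 12.5% ± 0.1 to 11.5% ± 0.2 and Rel from 4.52% ± 0.21 to 3.83% ± 0.27. For each of the 5 shares the groups did not overlap; the shares sum to a whole and are therefore not independent of each other, and no test was made of them. The ratio of Nfkb2 to Nfkb1, the pair of precursor genes, was 0.497, 0.511 and 0.485 in medium and 0.547, 0.546 and 0.546 with CpdA. The ratio of Relb to Rel, chosen after the values were seen, was 0.968, 1.09 and 0.920 in medium and 1.45, 1.24 and 1.26 with CpdA. In medium the Relb and Rel transcripts were thus about level, and with CpdA every library had more Relb. The ratio of the inhibitor Nfkbia to Nfkb1 was 0.567 ± 0.014 in medium and 0.556 ± 0.028 with CpdA, and its groups overlapped.

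**Figure D3:**
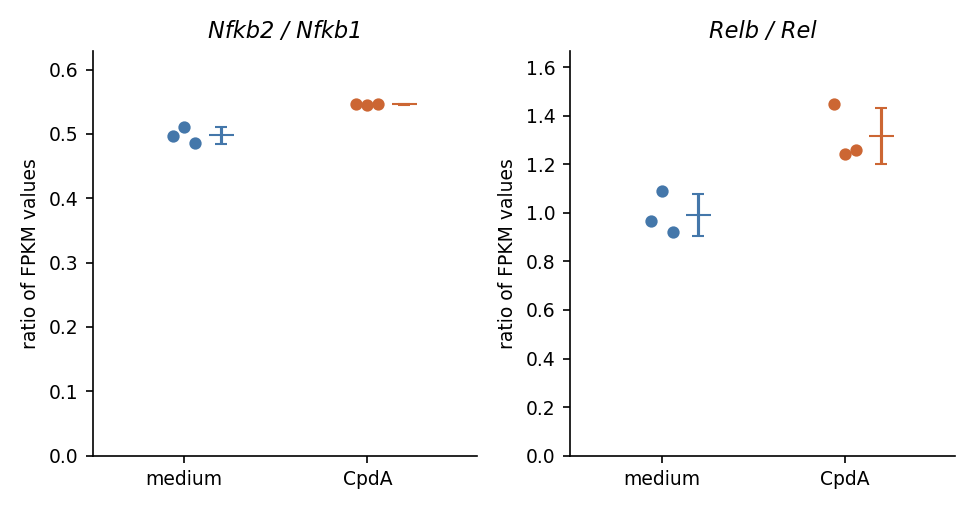
Ratio of deposited FPKM values per library, for Nfkb2 over Nfkb1 (left) and Relb over Rel (right), with group means and SD (n = 3) beside the points. Both axes start at 0, and in both panels every CpdA library lies above every medium library.

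Of the 5 members that are not subunits, Bcl3 (ENSMUSG00000053175, chromosome 7, 19808462 to 19822770) was the one called. Its product resembles the inhibitors but works in the nucleus, where it binds p50 and p52 on DNA. Medium libraries had 159, 158 and 155 CPM and CpdA libraries 137, 134 and 142 CPM, with 155 and 142 CPM as the nearest values of the 2 groups. The log2 fold change was -0.20 ± 0.03 (SE, adjusted p = 5.95e-06), or 0.869 times the medium level (interval 0.829 to 0.911), and it held in all 13 alternatives. Bcl3 had the smallest p of the members, yet 38.7% of all called genes had a smaller absolute change. The antisense gene Gm16174, which overlaps Bcl3, held 2.46% as many counts and fell by 0.63 (adjusted p = 0.00211). Bcl3 and Relb lie 179024 bases apart on chromosome 7, with 8 other genes of the table between them, and went in opposite directions.

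The 3 cytoplasmic inhibitor genes missed the threshold. Nfkbia (ENSMUSG00000021025, chromosome 12, 55489411 to 55492647), whose product IkBα is remade quickly after each round of NF-kB activity, had 153, 154 and 146 CPM in medium and 145, 153 and 147 CPM with CpdA. The groups overlapped, and the log2 fold change was -0.04 (95% interval -0.10 to 0.03, adjusted p = 0.452). Nfkbib (ENSMUSG00000030595, chromosome 7, 28758251 to 28767512) ranged over 62.6 to 69.2 CPM in medium and 60.2 to 64.5 CPM with CpdA, a log2 fold change of -0.08 (interval -0.17 to 0.01, adjusted p = 0.201). Sirt2 overlaps Nfkbib on the opposite strand with more counts than Nfkbib itself (133% of them) and fell by 0.13 (adjusted p = 0.0149). Nfkbie (ENSMUSG00000023947, chromosome 17, 45555716 to 45563169) ranged over 24.8 to 29.0 CPM in medium and 24.9 to 28.8 CPM with CpdA, a log2 fold change of -0.04 (interval -0.18 to 0.09, adjusted p = 0.665). Of the 3, Nfkbie had the widest interval and the fewest counts.

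Tnfaip3 (ENSMUSG00000019850, chromosome 10, 19000910 to 19015657), which codes for the brake A20, had 261, 261 and 260.4 CPM in medium and 255, 256 and 259 CPM with CpdA. Its groups did not overlap, because the medium libraries lay within 1.1 CPM of each other, but the shift was small: the log2 fold change was -0.03 (95% interval -0.09 to 0.03) and was not called (adjusted p = 0.436).

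**Figure D4:**
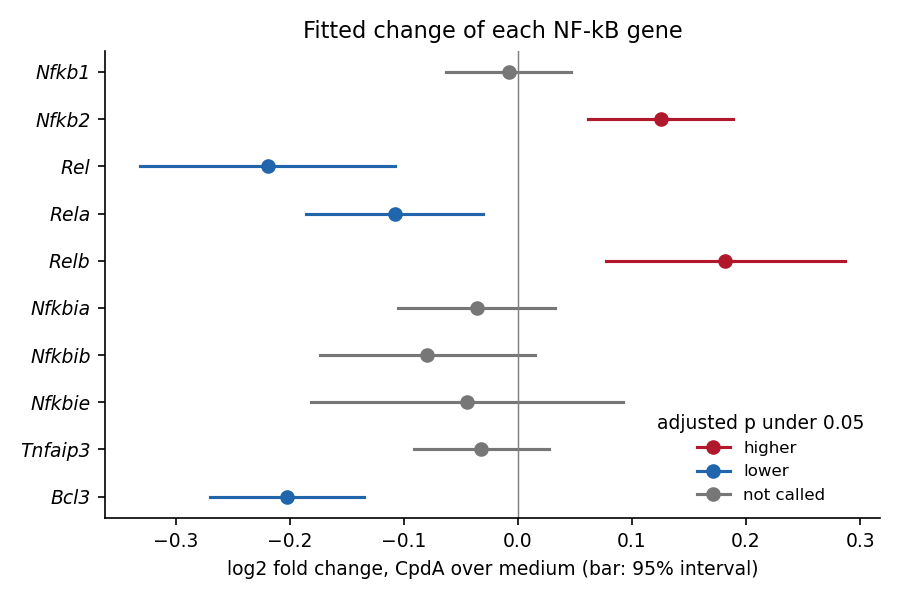
Fitted log2 fold change of CpdA over medium for each member (3 libraries a group), with 95% intervals from the edgeR fit; colour marks the call at an adjusted p under 0.05. Nfkb2 and Relb lie to the right of 0 and Rel, Rela and Bcl3 to the left, while the other 5 intervals span 0.

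The rest of the pathway was followed in 5 lists of 76 genes, all tested. Together 15 rose and 27 fell, with a median log2 fold change of -0.03. The share called was 55.3%, against 33.2% of all genes (16.5% higher and 16.7% lower). The lists were chosen with earlier results of these data known, so this difference is no test of the pathway. The 33.2%, here and below, also covers weakly expressed genes. With the filter of at least 5 CPM in 3 libraries, 4165 of 9845 genes were called. Upstream, the IKK list of 12 kinases and activators had 2 genes higher and 1 lower (25.0% called, near the 33.2% of all genes, median -0.01). Chuk, the gene of IKKα, which acts in the alternative branch, rose from 75.1 to 85.2 CPM (log2 fold change 0.17, adjusted p = 0.00198). Ikbke, an IKK-related kinase, fell from 75.2 to 66.4 CPM (-0.19, adjusted p = 0.000582). Tbk1, its close relative, rose by 0.13 (adjusted p = 0.0296), but its groups overlapped. The Tbk1 call was lost with DESeq2 (adjusted p = 0.0729) and without medium replicate 2 (0.110), medium replicate 3 (0.126), CpdA replicate 2 (0.163) or CpdA replicate 3 (0.0622), which leaves Chuk as the higher gene. Map3k7, the gene of TAK1, joined the higher genes under library size alone (by 0.11, adjusted p = 0.0373) and also when CpdA replicate 1 was left out (by 0.12, adjusted p = 0.0479). For Ikbkb, the gene of IKKβ, the log2 fold change was 0.04 (adjusted p = 0.460), and for the adaptor Tab2 -0.02 (adjusted p = 0.686).

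The next list held Bcl10 and Malt1 together with kinases, adaptors and ubiquitin ligases, many of which belong to TNF receptor signalling. In it, 6 of 13 genes fell and 1 rose, and these counts do not describe the complex alone. The share called was 53.8%, against 33.2% of all genes, and the median was -0.03. Malt1, the protease of the complex, stood at 707 ± 18 CPM in medium and fell to 589 ± 14 CPM with CpdA (SD, n = 3). Its log2 fold change was -0.27 ± 0.03 (SE, adjusted p = 2.84e-10). Birc2, a ubiquitin ligase that keeps NIK low, fell from 70.8 to 57.1 CPM (-0.32, adjusted p = 9.98e-07). Prkcq, the kinase that activates the complex, fell by 0.14 (adjusted p = 0.00335), a call lost without CpdA replicate 3 (-0.10, adjusted p = 0.0634), and the adaptor Traf1 fell by 0.11 (adjusted p = 0.00393). Ripk1, a kinase of TNF receptor signalling, rose by 0.22 (adjusted p = 0.00146). Birc3 (log2 fold change 0.06, adjusted p = 0.201) and Traf3 (-0.03, adjusted p = 0.643), which work with Birc2, were not called. Bcl10 itself was not called either (0.05, adjusted p = 0.459).

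Among 15 other IkB-like genes and A20-associated brakes, 7 fell and 2 rose (60.0% called, against 33.2% of all genes, median -0.04). The IkB-like genes Nfkbid and Nfkbiz are not only brakes, so the counts are those of a mixed list. These counts became 4 and 1 without CpdA replicate 3 (5 and 1 without medium replicate 3). The calls lost there were those of N4bp1, Nfkbiz, Zc3h12a and Tax1bp1 without the former and of N4bp1, Nfkbiz and Tax1bp1 without the latter. All 3 genes of the A20-binding family Tnip fell. Tnip3 had the largest change of the 76 genes, falling to 7.56 ± 0.16 CPM (SD, n = 3) from the 20.4 ± 0.2 CPM of the medium libraries. Its log2 fold change was -1.44 ± 0.09 (SE, adjusted p = 1.31e-16). Tnip2 fell from 74.7 to 61.0 CPM (-0.30, adjusted p = 1.44e-06) and Tnip1 from 133 to 121 CPM (-0.15, adjusted p = 0.000838). Peli1, a ubiquitin ligase that restrains T cell activation, fell by 0.19 (adjusted p = 1.46e-05). Nfkbid, a nuclear inhibitor-like gene related to Bcl3, went the other way, from 31.1 to 39.1 CPM (0.32, adjusted p = 2.32e-05). The deubiquitinase genes Cyld (0.02, adjusted p = 0.778) and Otud7b (0.06, adjusted p = 0.287) were not called.

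Of 14 receptors that signal to NF-kB, 5 fell and the others were not called (35.7% called, near the 33.2% of all genes, median -0.06); 5 of the 14 had mean levels under 5 CPM in both groups. Tnfrsf9, the receptor 4-1BB, fell from 1136 ± 29 to 733 ± 26 CPM (SD, n = 3; log2 fold change -0.64, adjusted p = 7.12e-21). Cd27, another co-stimulatory receptor, fell by 0.36 (adjusted p = 1.17e-07), Tnfrsf25 by 0.21 (adjusted p = 0.00281) and Cd28 itself by 0.12 (adjusted p = 0.00123). Il18r1 fell by 0.49 from 4.61 CPM (adjusted p = 0.0206), but not with DESeq2 (0.0689) nor without medium replicate 1 (0.127), CpdA replicate 2 (0.105) or CpdA replicate 3 (0.135). Tnfrsf4, the receptor OX40 (0.05, adjusted p = 0.130), and Tnfrsf18 (-0.07, adjusted p = 0.126) were not called. Ltbr, the lymphotoxin beta receptor, passed as higher without medium replicate 2 (0.79, adjusted p = 0.0452), but in the full set it was not called (0.39, adjusted p = 0.285).

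Genes known to be induced through NF-kB went both ways: 10 of 22 rose and 8 fell (81.8% called, against 33.2% of all genes, median 0.05). Without medium replicate 3, 7 rose and 7 fell, and the same counts were found without CpdA replicate 3. The calls lost in both fits were those of Csf2, Myc, Icam1 and Ccl4. Most of the 22 genes answer to other activation signals too. Lta, the gene of lymphotoxin alpha, rose from 169 to 199 CPM (0.23, adjusted p = 3.95e-07), while Ltb, the gene of its partner chain, fell from 183 to 144 CPM (-0.35, adjusted p = 1.72e-08). Ier3, an early response gene, fell by 0.45 (adjusted p = 1.06e-10) and the cyclin gene Ccnd2 by 0.17 (adjusted p = 6.37e-06), whereas the adhesion receptor Cd44 rose by 0.25 (adjusted p = 1.74e-06). For Irf4, a transcription factor of activated T cells, the log2 fold change was 0.02 (adjusted p = 0.631). Il2ra, the IL-2 receptor alpha chain, stood at 2793 and 2923 CPM with a log2 fold change of 0.06 (adjusted p = 0.0587). It passed with library size alone (0.0222), DESeq2 (0.0415), limma-voom (0.0129) and without CpdA replicate 1 (0.0493).

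**Figure D5:**
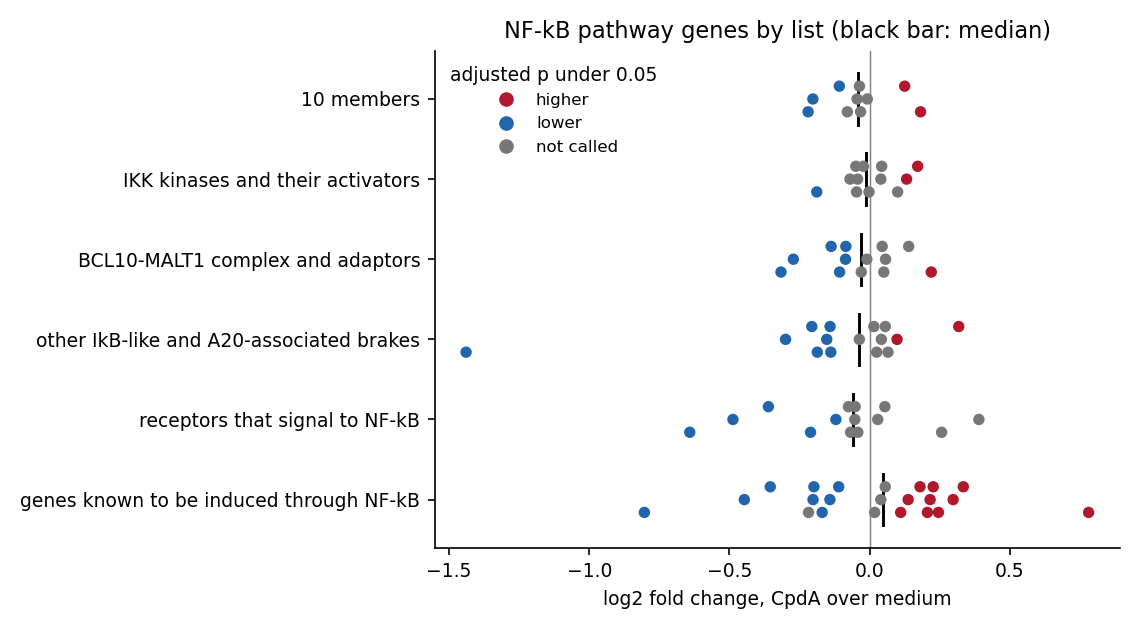
Log2 fold change of CpdA over medium for the 10 members and the 76 genes of the 5 pathway lists, with 1 point a gene and a black bar at each median. Tnip3 lies farthest to the left at -1.44, and the medians of all rows lie between -0.06 and 0.05.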

How the data were processed

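RNA-seq libraries of 3 medium and 3 CpdA samples were grouped by their labels. Per the file headers, the deposited values are raw read counts and the authors' FPKM for each gene. Counts divided by gene length and library total returned the deposited FPKM (largest relative difference 1.86e-07). GRCm38 and mm10 are the builds, and CASAVA 1.8 the tool, in the submitters' processing notes. The sources used here give no aligner, counter, annotation or strand setting. There were 0 per-sample columns tied to no sample.

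Counts were tested in R 4.3.3 with the quasi-likelihood test of edgeR 4.0.16 (TMM scaling, robust, no covariates) on genes kept by filterByExpr (minimum count 10, total 15). P-values were adjusted by Benjamini-Hochberg over all 13507 genes and called under 0.05. SEs and 95% intervals come from that fit. CPM uses the library total, whose lowest value allows 0.148 CPM for a count of 0 (3 counts, counting error only). The script was tested on simulated counts. Alternatives were DESeq2 1.42.0, limma 3.58.1 (voom), other scalings and filters, a replicate block, and leaving out each library. Marker sums were compared by exact permutation, as described for the lists named; the CD4 T cell, macrophage and plasma cell lists gave p = 0.1, the NK cell list 0.2 and the CD8 T cell list 0.8 (two-sided). After adjustment over all 7 lists, no p was under 0.175. Because 0.1 is the smallest p this design allows, no list could reach 0.05. These sums therefore cannot decide whether markers differed between groups. In the edgeR fit of single genes, Sdc1 of the plasma cell list was called lower (-0.52, adjusted p = 1.74e-05). Jchain of the same list was not called (0.89, adjusted p = 0.106).

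Members and lists were chosen with earlier results of these data known. A pathway gene and a marker gene of these lists are not reported here. Named pathway genes are, per list, up to 5 called genes with the smallest p and up to 2 uncalled genes of highest CPM. Bcl10 and some genes whose call changed in an alternative are named besides. Promoter sequences are from RefSeq (GRCm38.p6). Overlapping genes come from GENCODE M21.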

Additional observations from a re-analysis of the deposited data

How the results depend on the processing

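Over 13 alternatives, 8 of 10 members kept their direction or their lack of a call in each; of 130 member values, 6 lost a call and 0 gained one. Rela was lost with DESeq2 (log2 fold change -0.11), with the replicate block (-0.11, adjusted p = 0.0689) and in 3 of the fits with 1 library fewer, and Relb in 1 such fit. With 1 library fewer, the log2 fold change of Rela ranged from -0.13 to -0.073 (without medium replicate 2) and that of Relb from 0.15 to 0.24. The members called numbered 4 or 5 and those called higher 1 or 2. The genes called overall ranged from 3620 (DESeq2) to 4538 (library size alone), and were 3936 with the replicate block. Same-numbered libraries did not deviate together (correlations -0.02 to -0.00056 over 3 pairs), so the block rests on a number only. It moved 1 count by more than 1.5 times, the IKK genes called higher (1 in place of 2, as with DESeq2, since Tbk1 was lost, adjusted p = 0.0626). It lowered others by less. The genes called went from 7 to 5 in the BCL10 and MALT1 list and from 9 to 7 in the list of IkB-like genes and brakes. Among the induced genes they went from 18 to 17. With 1 library fewer, the IKK genes called higher were 1 to 3 and the receptors called higher 0 or 1. The IkB-like genes and brakes called were 5 to 8 in those fits (1 to 2 higher, 4 to 6 lower). The induced genes called were 14 to 17 in those fits. Using CPM in place of FPKM, which leaves gene length in, gave shares of 59.8% and 58.8% for Nfkb1 (medium, CpdA), 23.2% and 25.02% for Nfkb2, 3.50% and 2.97% for Rel, 9.41% and 8.63% for Rela and 4.05% and 4.56% for Relb, and ratios of 0.217 and 0.213 for Nfkbia to Nfkb1, 0.388 and 0.425 for Nfkb2 to Nfkb1 and, chosen after seeing the data, 1.16 and 1.54 for Relb to Rel; each direction was the same. The cause of the lost calls was not tested. At 561 counts or more per library, depth limits Nfkbie most.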

Other observations

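The nearest tested neighbours of 3 members are given as values. Beside Relb on chromosome 7, Clptm1 (19631581 to 19665030, 2143 bases away) rose by 0.21 on the log2 scale (edgeR adjusted p = 5.09e-05), from 83.3 to 97.3 CPM, while Clasrp, on the other side, stood at -0.08 (adjusted p = 0.259). The neighbours of Bcl3 were Bcam (-0.02, adjusted p = 0.889) and Ceacam16 (-0.05, adjusted p = 0.915), and those of Nfkb2 were Gbf1 (-0.08, adjusted p = 0.119) and Fbxl15 (0.03, adjusted p = 0.913).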
